A study of Mus musculus with 12 samples.

Results

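The genes of the NF-κB subunits and of their feedback inhibitors were examined in primary mouse oligodendrocytes (OLs) treated with siEgr2. They were chosen by symbol and comprise 10 of the 56860 named genes of the counts table: the 5 subunit genes Nfkb1, Nfkb2, Rel, Rela and Relb, the inhibitor genes Nfkbia and Nfkbie, the genes Nfkbiz and Bcl3 of nuclear IκB proteins, and Tnfaip3. All 10 had enough counts to be tested, with at least 52 counts in every library.

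NF-κB is a family of transcription factors that bind DNA as pairs of subunits. In resting cells, inhibitors of the IκB family hold the pairs in the cytoplasm, until receptors for TNF, interleukin-1 or microbial products activate the IKK kinases, which mark the inhibitors for degradation. In a slower, noncanonical branch, the kinase NIK leads to the trimming of p100 to p52, which acts together with RelB. Many of these genes are themselves induced by NF-κB, so that the family forms feedback loops, and in the brain the pathway is best known from the cytokine responses of astrocytes and microglia.

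The OLs were O4+ cells isolated with magnetic beads from the cortex of newborn C57BL/6J mice, while the labels give the medial prefrontal cortex as the tissue. They were expanded with PDGF-AA and then kept in a medium with insulin, triiodothyronine and ciliary neurotrophic factor, which both groups received. One group of 6 libraries was treated with siEgr2 and the other group of 6 with a scrambled siRNA (siNC), and RNA was harvested after 48 h. The methods call the reagent an siRNA in one place and a plasmid in another. No source says that the libraries of a group came from separate cultures, so the p-values measure the spread between these libraries, which may be technical.

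Total counts were 28682946 to 39383014 in the siNC libraries and 8034251 to 16683677 in the siEgr2 libraries, and the 18S ribosomal RNA gene Rn18s-rs5 took 0.142% to 1.05% and 10.5% to 16.5% of them. Depth, ribosomal RNA share and treatment cannot be told apart. Egr2, the target of the siRNA, had 5.35 ± 1.27 CPM (counts relative to the library total, after TMM scaling) in siNC and 3.77 ± 1.01 CPM in siEgr2 (SD, n = 6 libraries each), with overlapping groups, and was not called (log2 fold change -0.51, edgeR adjusted p = 0.0981). The OL marker Mbp was high (1830 CPM in siNC), but so was the astrocyte marker Gfap, at 4777 CPM. Of 13 microglia markers, Aif1 and Itgam had no count in any library, while others were present at low counts, such as P2ry12 with 16 to 44 in siNC and 8 to 22 in siEgr2.

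The promoters are shown first, with those of 2 of the 3 genes called lower beside those of genes that were not called. RefSeq windows on GRCm38.p6, from 250 bases before to 50 bases after an annotated start, were used for 7 of the 10 genes, in 10 windows, and not for Nfkbiz, which was called lower, Nfkb1 and Relb. They were searched on both strands for the κB consensus, the motif that NF-κB pairs bind. It was found in 8 of these 10 windows, against 4.51% of all 32851 promoter windows, and in 6 of the 7 genes, all but Rela. The last 2 windows of Nfkb2 overlap and share 1 match, which is counted in both. Nfkb2, the gene of p100, and Nfkbia, the gene of IκBα, were both called lower in siEgr2, and the stretches around their matches are printed 5′ to 3′ on the strand of the gene, with the match in capitals. In the first of them, a second match begins 1 base further on.
Nfkb2, plus strand, chr19:46304688-46304717: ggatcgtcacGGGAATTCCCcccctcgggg
Nfkb2, plus strand, chr19:46304716-46304745: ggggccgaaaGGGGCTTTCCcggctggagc
Nfkb2, plus strand, chr19:46305449-46305478: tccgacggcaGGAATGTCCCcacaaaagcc
Nfkb2, plus strand, chr19:46305695-46305724: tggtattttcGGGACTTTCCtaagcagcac
Nfkbia, minus strand, chr12:55492657-55492686: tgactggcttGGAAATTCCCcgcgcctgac
The matches of Nfkb2 lie at 4 places, counted with overlaps merged, from -39 and -11 relative to its first annotated start, and from -236 and 11 relative to its second. The stretches at -39 and -11 lie wholly in exons of the GENCODE annotation, and that at 11 in 29 of its 30 bases, while that at -236 holds no exonic base. That of Nfkbia lies at -29. The other stretches with a match belong to genes that were not called.
Rel, minus strand, chr11:23771042-23771071: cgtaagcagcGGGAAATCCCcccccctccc
Nfkbie, plus strand, chr17:45555584-45555613: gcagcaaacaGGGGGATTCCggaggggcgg
Tnfaip3, minus strand, chr10:19015516-19015545: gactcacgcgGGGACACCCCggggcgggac
Tnfaip3, minus strand, chr10:19015403-19015432: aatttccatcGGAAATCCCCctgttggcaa
Bcl3, minus strand, chr7:19822734-19822763: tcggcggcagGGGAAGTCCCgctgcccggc
The match of Rel begins at -92, with an overlapping one 1 base further on, and that of Nfkbie at -106. Tnfaip3 has matches at -125 and -12, and Bcl3 has one at 3, just inside its transcript. A match to the consensus was therefore present both in genes that fell and in genes that were not called, and a match is a description of the letters only.
The motif GCGNGGGCG, known for the EGR family, was found in 1 of the 7 genes, in Nfkb2 at -58 from its second start, against 6.27% of the genes with a window. It shares no bases with the matches to the κB consensus.
Nfkb2, plus strand, chr19:46305627-46305656: ccctcccgctGCGGGGGCGtggccccggcg
The inhibitor genes Nfkbia and Nfkbie had unlike changes, as described with their levels, and their 250 bases before the start are given whole, with κB matches in capitals.
Nfkbia, minus strand, chr12:55492648-55492897: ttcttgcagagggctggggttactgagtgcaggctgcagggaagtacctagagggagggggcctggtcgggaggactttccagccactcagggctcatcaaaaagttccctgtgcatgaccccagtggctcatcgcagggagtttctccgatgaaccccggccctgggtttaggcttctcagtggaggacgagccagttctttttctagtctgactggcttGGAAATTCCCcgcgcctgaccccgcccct
Nfkbie, plus strand, chr17:45555450-45555699: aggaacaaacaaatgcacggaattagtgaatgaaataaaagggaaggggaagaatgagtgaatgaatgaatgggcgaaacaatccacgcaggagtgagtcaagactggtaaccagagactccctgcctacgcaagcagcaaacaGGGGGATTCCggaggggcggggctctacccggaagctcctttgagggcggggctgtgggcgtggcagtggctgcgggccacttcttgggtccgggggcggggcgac

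Of the 10 genes, 3 were called lower in siEgr2 than in siNC (against 5.08% of all 16600 genes tested), namely Nfkbiz (GRCm38, chr16:55811375-55838899, minus strand), Nfkbia (chr12:55489410-55492647, minus strand) and Nfkb2 (chr19:46304320-46312385, plus strand). A call required that the edgeR quasi-likelihood test gave an adjusted p under 0.05 and that the log2 fold change exceeded 0.5 in size. None was called higher, where 2.63% of all genes tested were; 0 of the 10 rose at an unadjusted p under 0.05, and DESeq2 and limma-voom also called 0 higher. At the adjusted p alone, 5 genes were lower, with Relb and Nfkb1 in addition, against 11.3% of all genes tested. In 4 genes, Nfkb1, Nfkb2, Nfkbia and Nfkbiz, every siEgr2 library lay below every siNC library, as in 7.00% of all genes tested. The median log2 fold change was -0.32 over the 10 genes and 0.0046 over all genes tested.

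**Figure D1:**
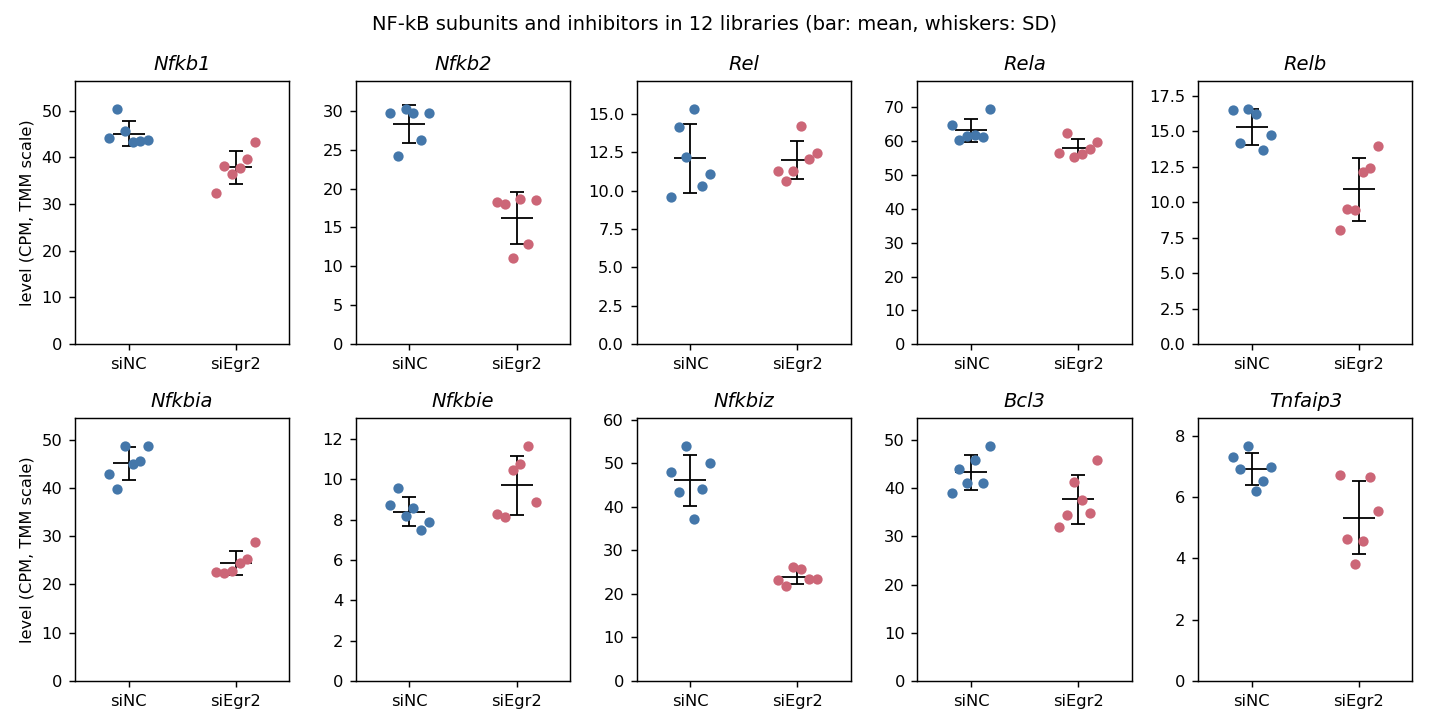
Level in CPM on the TMM scale (vertical axes, each from 0) of the 10 genes in the 6 siNC and 6 siEgr2 libraries, with 1 point per library, a bar at the mean and whiskers of 1 SD. The groups do not overlap for Nfkb1, Nfkb2, Nfkbia and Nfkbiz, and overlap for the other 6 genes.

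Among the subunits, Nfkb2 had the largest difference. This gene encodes p100, which is both a precursor of the p52 subunit and an inhibitor that retains RelB. Its level in siNC was 24.2 CPM in the lowest library, 29.7 at the median and 30.2 in the highest, and in siEgr2 it was 11.1, 18.1 and 18.6 CPM. The lowest siNC library thus lay above the highest siEgr2 library, and 2 siEgr2 libraries, replicates 3 and 5, lay below the other 4 at 11.1 and 12.9 CPM. Nfkb2 fell by 0.80 on the log2 scale (standard error 0.12, edgeR adjusted p = 0.000201). Of the annotated exonic bases of Nfkb2, 6.52% are shared with Psd on the opposite strand, whose level was 4.75 CPM in siNC and 4.77 CPM in siEgr2, and 11.6% with the antisense gene AC114539.1, for which no value is given here. Whether the counting used the strand is not given in the sources used here.

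Relb encodes RelB, the partner of p52 in the noncanonical branch. Its level was 13.7 CPM in the lowest siNC library, 15.5 at the median and 16.6 in the highest, against 8.07, 10.8 and 13.9 CPM in siEgr2. Only the highest siEgr2 library reached into the siNC range. The log2 fold change was -0.50 (standard error 0.12, 95% interval -0.76 to -0.23, edgeR adjusted p = 0.00906), just inside the fold threshold, so that Relb was not called. It was called in 11 of 25 alternative settings, at -0.51 to -0.68.

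Nfkb1 encodes p105, the precursor of the p50 subunit. Its level was 43.2 CPM in the lowest siNC library, 43.9 at the median and 50.3 in the highest, and 32.3, 37.9 and 43.2 CPM in siEgr2. The groups did not overlap, but the highest siEgr2 library (replicate 6, 43.18 CPM) almost reached the lowest siNC library (43.21 CPM). The log2 fold change of -0.25 (95% interval -0.40 to -0.11, edgeR adjusted p = 0.0136) was under the fold threshold. When all libraries were thinned to the smallest total, the edgeR adjusted p was 0.0262 in one random draw and 0.0854 in another.

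Rela encodes p65, the subunit with a strong activation domain in the most common pair. It had 60.4 to 69.5 CPM in siNC and 55.3 to 62.5 CPM in siEgr2, and the groups overlapped. Its log2 fold change was -0.13 (95% interval -0.23 to -0.017, edgeR adjusted p = 0.0981). Rel, the gene of c-Rel, which is best known from lymphoid cells, had 9.59 to 15.3 CPM in siNC and 10.7 to 14.2 CPM in siEgr2. Its log2 fold change was -0.013 with a 95% interval from -0.28 to 0.25, so that changes over 0.28 in either direction lie outside the interval.

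The inhibitors differed among themselves. Nfkbia encodes IκBα, the inhibitor that is degraded and then made again within hours of a signal, and whose mRNA is a common readout of NF-κB activity. Its level in siNC was 39.8 CPM in the lowest library, 45.3 at the median and 48.7 in the highest, against 22.4, 23.6 and 28.9 CPM in siEgr2. The gap between the groups was wider than the range within either of them. Nfkbia fell by 0.89 on the log2 scale (standard error 0.075, edgeR adjusted p = 5.67e-07).

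Nfkbie encodes IκBε, a second inhibitor of the same kind. It had 7.46 CPM in the lowest siNC library, 8.37 at the median and 9.56 in the highest, and 8.14, 9.65 and 11.7 CPM in siEgr2, with overlapping groups. It was the only one of the 10 genes with a positive log2 fold change, 0.20, and was not called (95% interval -0.042 to 0.45, edgeR adjusted p = 0.245). The interval excludes a decrease of the size seen for Nfkbia.

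Nfkbiz and Bcl3 encode IκBζ and Bcl-3, which act in the nucleus with p50 or p52 and can raise the transcription of their targets. IκBζ is known to be needed for the induction of a subset of NF-κB targets, among them Lcn2 and Il6. The level of Nfkbiz in siNC was 37.1 CPM in the lowest library, 46.0 at the median and 53.9 in the highest, against 21.8, 23.5 and 26.2 CPM in siEgr2, with no overlap. Nfkbiz fell by 0.94 on the log2 scale (standard error 0.085, edgeR adjusted p = 1.12e-06), the largest change of the 10 genes.

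Bcl3 had 39.1 to 48.8 CPM in siNC and 32.1 to 45.8 CPM in siEgr2, overlapping, with a log2 fold change of -0.20 (95% interval -0.38 to -0.022, edgeR adjusted p = 0.110). Of its exonic bases, 6.51% are shared with the antisense gene Gm16175, which had almost no reads (0.00509 and 0.0206 CPM). Tnfaip3 encodes A20, which edits ubiquitin chains on signaling adaptors and so damps the pathway above IKK. Its level was 6.21 CPM in the lowest siNC library, 6.95 at the median and 7.67 in the highest, and 3.83, 5.10 and 6.72 CPM in siEgr2. Libraries 1 and 5 of siEgr2, at 6.72 and 6.66 CPM, lay within the siNC range and the other 4 below it. The log2 fold change was -0.39 (95% interval -0.70 to -0.076, edgeR adjusted p = 0.0770), which did not pass the threshold, and the interval includes changes as large as that of Relb.

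**Figure D2:**
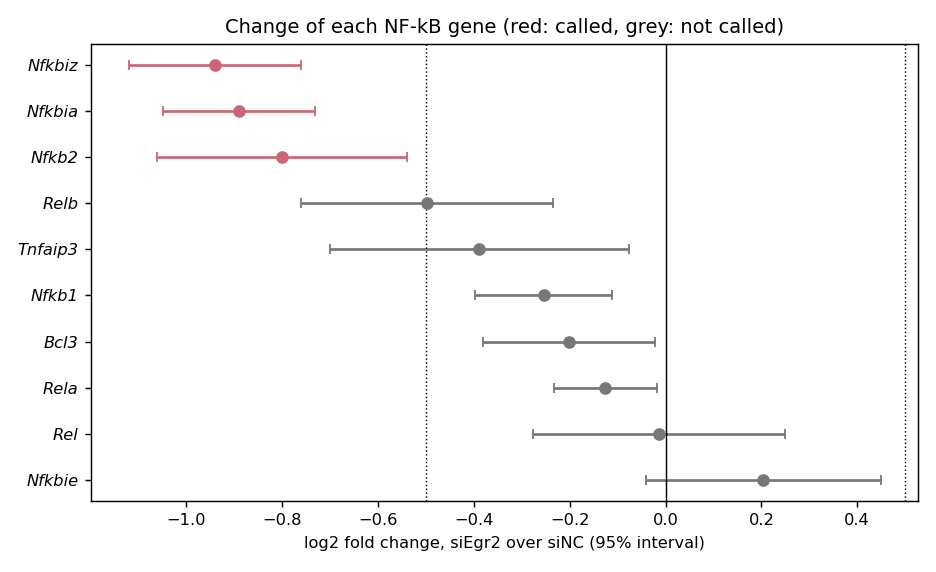
Log2 fold change of siEgr2 over siNC (horizontal axis) for each of the 10 genes, with its 95% interval and dotted lines at the fold threshold of 0.5 in both directions. The intervals of Nfkbiz, Nfkbia and Nfkb2 lie wholly below -0.5, while those of Rel and Nfkbie include 0.

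The levels of these genes relative to each other were compared with ratios of pairs of these genes within each library, which do not depend on the scaling factor. Of 8 ratios compared, 6 differed between the groups in a two-sided exact permutation test over all 924 assignments of the libraries (adjusted p under 0.05 over the 8 ratios). Of these 6, 4 contain Nfkbia, so they share its decrease and are not independent of each other or of its call. Likewise, Nfkb2 to Nfkb1 and Relb to Rela contain the decreases of Nfkb2 and Relb. The ratios were chosen with earlier results of these data known, and the adjustment over the 8 ratios does not cover that choice. Nfkbia was 0.714 ± 0.0521 counts per count of Rela in siNC and 0.421 ± 0.0421 in siEgr2 (SD, n = 6 libraries each), without overlap (exact permutation p = 0.00216, which no 6 against 6 comparison can go below, adjusted p = 0.00577). The mRNA of the main inhibitor thus decreased relative to that of the p65 subunit. In the opposite direction, Nfkbie went from 0.188 ± 0.0307 to 0.401 ± 0.0633 counts per count of Nfkbia (exact permutation p = 0.00216, adjusted p = 0.00577), again without overlap. Bcl3 went from 0.964 ± 0.0967 to 1.55 ± 0.151 counts per count of Nfkbia (same exact permutation p and adjusted p), without overlap, although its own log2 fold change was negative (-0.20).

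The precursor pair Nfkb2 to Nfkb1 had a ratio of 0.631 ± 0.0790 counts in siNC and 0.433 ± 0.10 in siEgr2 (exact permutation p = 0.00649, adjusted p = 0.0104), and Relb to Rela had 0.243 ± 0.0224 and 0.189 ± 0.0381 (exact permutation p = 0.0195, adjusted p = 0.0260). The groups overlapped in both ratios. Without siNC replicate 1, 3 or 4, the adjusted p of the Relb to Rela ratio was 0.0606, 0.0664 or 0.0635 in the exact permutation test. The ratio of Tnfaip3 to Nfkbia went from 0.155 ± 0.0152 to 0.221 ± 0.0501 (exact permutation p = 0.00649, adjusted p = 0.0104), with overlap. The ratios that did not pass were Nfkbiz to Nfkbia, 1.02 ± 0.113 in siNC and 0.991 ± 0.114 in siEgr2 (exact permutation p = 0.643), and Rel to Rela, 0.193 ± 0.0411 and 0.208 ± 0.0265 (exact permutation p = 0.387).

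**Figure D3:**
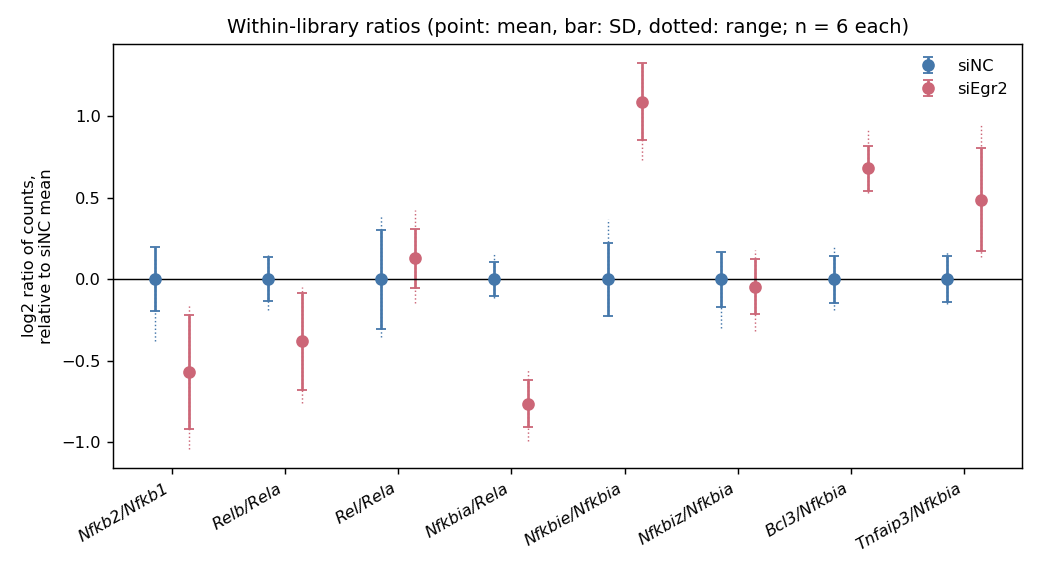
Log2 ratio of the counts of 2 genes in the same library (vertical axis), shown relative to the siNC mean of that ratio, with points at the mean, bars of 1 SD and dotted lines over the range of 6 libraries per group. The siEgr2 values of Nfkbia to Rela lie below, and those of Nfkbie and Bcl3 to Nfkbia above, all siNC values, while the ranges of Nfkbiz to Nfkbia overlap.

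Levels of different genes were compared per kilobase of annotated exons, which include exons of transcripts that may not be used here. On this scale the order of the mean levels in siNC was Nfkbia (28.0 CPM per kilobase), Rela (20.6), Bcl3 (17.5), Nfkbiz (9.17), Nfkb2 (6.17), Relb (3.94), Nfkb1 (3.74), Nfkbie (2.76), Rel (1.62) and Tnfaip3 (0.959). Of the neighbors in this order, Rela and Bcl3 overlapped in their ranges, as did Relb and Nfkb1. In siEgr2, Rela came first with 18.9 CPM per kilobase, followed by Bcl3 with 15.2 and Nfkbia with 15.1, and the ranges of Rela and Bcl3, and of Bcl3 and Nfkbia, overlapped. Nfkb2 (3.54 CPM per kilobase), Nfkbie (3.18) and Nfkb1 (3.14) each overlapped with the next in the order there, the last of them with Relb (2.81), and Rel (1.61) and Tnfaip3 (0.737) remained the lowest.

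Because NF-κB genes are expressed in several glial cells, the levels of the 3 genes that fell are given beside the cell type markers. Of 10 astrocyte markers, 5 were called lower and none higher, where 5.08% of all genes tested were lower and 2.63% higher. Their median log2 fold change was -0.58, and their summed level was 8295 to 8995 CPM in siNC and 5321 to 6011 CPM in siEgr2. In bulk libraries, fewer cells of a type and less RNA per cell cannot be told apart. Per 1000 counts on these markers in the same library, a scale chosen after the data were seen, Nfkbia had 5.19 ± 0.411 counts in siNC and 4.24 ± 0.364 in siEgr2, Nfkbiz 5.30 ± 0.728 and 4.18 ± 0.441, and Nfkb2 3.25 ± 0.271 and 2.81 ± 0.50 (SD, n = 6 libraries each). On that scale the groups overlapped for all 3 genes. For Nfkbia the overlap was narrow, with 4.80 in the highest siEgr2 library and 4.76 in the lowest siNC library. The lower marker sum in siEgr2 raises every gene alike on this scale, also genes with little change in CPM: Rela had 7.27 ± 0.421 and 10.1 ± 0.342 counts per 1000. The values are therefore a description, and no difference between the groups is read from them. The part of the astrocyte markers in the result was not tested.

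The summed level of 10 OL markers was 8287 to 9454 CPM in siNC and 7783 to 8132 CPM in siEgr2, and none of them was called. Their median log2 fold change was -0.18, and 4 passed the adjusted p alone, among them Mbp (-0.28, edgeR adjusted p = 0.000228), whose groups did not overlap. Of 8 OL precursor markers, 2 were called higher, where 2.63% of all genes tested were, and the sum was 4980 to 5435 and 6050 to 6931 CPM. The 13 microglia markers summed to 28.0 to 35.6 CPM in siNC and 25.1 to 35.7 CPM in siEgr2, and of the 6 that were tested none was called. The sums were 26.1 to 35.5 and 28.2 to 38.0 CPM for 7 endothelial markers, 814 to 1359 and 837 to 1031 CPM for 8 fibroblast and pericyte markers, and 136 to 155 and 118 to 130 CPM for 7 neuron markers. Called lower were 1 of the 3 endothelial markers tested, 2 of the 7 fibroblast and pericyte markers tested and 1 of the 6 neuron markers tested, where 5.08% of all genes tested were called lower.

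The other genes of the pathway comprised 100 genes in 5 lists, of which 84 were tested, 31 were called lower and 0 higher by edgeR, where 5.08% of all genes tested were lower and 2.63% higher. These shares are also the background of the counts of each list. At an unadjusted p under 0.05, 2 of them were higher, both in the list of receptors and adaptors. These were Il1rap (log2 fold change 0.25, edgeR adjusted p = 0.00121) and Traf6 (0.18, edgeR adjusted p = 0.0455), both under the fold threshold. DESeq2 and limma-voom called 0 of the pathway genes higher and 31 and 30 lower. The lists were written with earlier results of these data known, so their counts are a description.

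Of 10 ligand genes, 4 were tested. Il33, the gene of a cytokine of the interleukin-1 family, had 117 to 324 reads in siNC libraries and 56 to 112 in siEgr2 libraries and was not called (log2 fold change 0.21, edgeR adjusted p = 0.469), nor were Tnfsf12 (-0.40) and Tnfsf13b (0.29). The ligands that were not tested had few reads. The reads on Tnf numbered 6 to 26 in siNC libraries and 0 to 5 in siEgr2 libraries, and those on Il1b 0 to 5 in siNC and none in siEgr2. Tnfsf11, the gene of RANKL, a ligand of the noncanonical branch, was called lower, from 19 to 38 reads in siNC libraries (0.580 to 1.11 CPM) to between 0 and 4 in siEgr2 libraries (0 to 0.299 CPM). It passed the count filter through the deeper siNC libraries and was not tested in the thinned libraries. Its log2 fold change of -3.84 was -7.34 without siEgr2 replicate 4, so its size is uncertain.

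Of 26 receptor and adaptor genes, 24 were tested and 8 were called lower, with a median log2 fold change of -0.32. They included receptors of microbial products, Tlr2 (-1.85), its co-receptor Cd14 (-1.32) and Tlr3 (-0.80), the interleukin-1 receptor Il1r1 (-0.68), and the lymphotoxin receptor Ltbr (-0.65), which feeds the noncanonical branch, all as log2 fold changes. Il1r1 had 29.0 to 30.9 CPM in siNC and 16.0 to 20.3 CPM in siEgr2, and Ltbr had 34.9 to 40.6 and 19.2 to 26.6 CPM, so that neither gene overlapped between the groups. The adaptors Myd88 (-0.64), Traf1 (-0.64) and Birc3 (-0.80) were also called, of which Traf1 and Birc3 are known NF-κB targets themselves, and these 3 lost their call in 5, 15 and 6 of 25 alternatives.

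In the core of the signaling machinery, 18 genes of the IKK complex and the kinases and ligases around it were tested and 2 were called lower, beside 5.08% of all genes tested, and the median log2 fold change was 0.0056. The IKK subunit genes Chuk (0.082), Ikbkb (0.092) and Ikbkg (-0.092) were not called, nor was Map3k14 (0.016), the gene of NIK. The genes called were Ikbke, an inducible IKK-related kinase (log2 fold change -1.24), and Map3k8, the kinase held by p105 (-0.89). Ikbke had 4.56 to 6.08 CPM in siNC and 1.06 to 4.41 CPM in siEgr2. Of 16 other inhibitor genes, 15 were tested and 1 was called, Zc3h12a (-1.08), whose product Regnase-1 degrades cytokine mRNAs. Nfkbib, the gene of IκBβ, had 40.3 to 49.5 and 37.6 to 43.4 CPM and a log2 fold change of -0.10, and was not called.

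Known NF-κB target genes had the most calls of the 5 lists. Of 30 targets, 23 were tested, 19 were called lower and none higher, and the median log2 fold change was -1.32. In 20 of the 23, every siEgr2 library lay below every siNC library, as in 7.00% of all genes tested. Saa3, the gene of an acute-phase protein, had 42.7 to 69.1 CPM in siNC and 2.35 to 5.63 CPM in siEgr2, and fell by 3.75 on the log2 scale. Lcn2, the gene of the iron-binding protein lipocalin 2, had 524 to 673 CPM and 120 to 160 CPM and fell by 2.12.

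The chemokine genes Cxcl1 (log2 fold change -1.91), Ccl2 (-1.67) and Cxcl10 (-1.64), the protease gene Mmp3 (-1.84), Ptx3 (-1.66), which encodes a pattern recognition protein, and Tnfaip2 (-1.84) were called lower as well. Cxcl1, for example, had 19.2 to 24.4 CPM in siNC and 2.95 to 8.75 CPM in siEgr2. These 8 target genes were named for the size of their change, and other called targets changed less, such as Sdc4 (-0.92), Ier3 (-0.77) and Icam1 (-0.56). Il6 was too low to be tested, with 8 to 27 reads in siNC libraries and 0 to 5 in siEgr2 libraries. The targets that were tested and not called were Csf1 (-0.32), Nos2 (-0.085), Sod2 (0.021) and Irf1 (0.034).

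**Figure D4:**
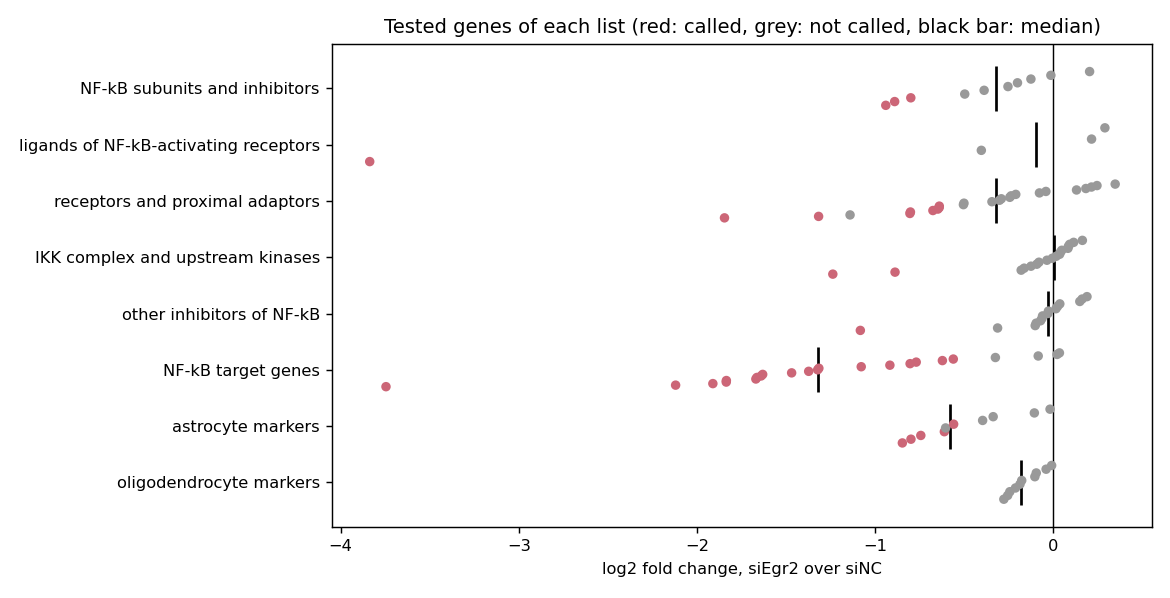
Log2 fold change of siEgr2 over siNC (horizontal axis) for each tested gene of the subunits and inhibitors, 5 pathway lists, the astrocyte and the OL markers (rows), with called genes in red, others in grey and the median of each list as a black bar. The ligand farthest to the left is Tnfsf11, with 0 to 4 reads in siEgr2 libraries, whose value of -3.84 was -7.34 without siEgr2 replicate 4. The median of the target genes is -1.32, that of the astrocyte markers -0.58 and that of the IKK complex and its kinases 0.0056.

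The profile of Nfkb2 over the 12 libraries was compared with those of 12399 other tested genes whose mean log2 CPM reached 2, by the root mean square difference of log2(CPM + 0.5) after each gene was centered on its mean. The most alike were Gpc4 (difference 0.12), Plp2 (0.14), Tagln (0.14), Cd44 (0.14) and S1pr1 (0.16), against a median difference of 0.49 over all genes compared. Gpc4 fell from 90.2 to 52.4 CPM and Cd44, the gene of the hyaluronan receptor, from 113 to 66.6 CPM, in means of 6 libraries. Among the other NF-κB genes, Nfkbia was closest to Nfkb2, at rank 101 with a difference of 0.22, followed by Nfkbiz at rank 369 (0.28) and Relb at rank 632 (0.31). Rel and Nfkbie, at ranks 6439 and 10422, were least alike. Libraries of both groups enter this difference, so it also holds the change between siNC and siEgr2. The 5 genes most alike had log2 fold changes from -0.63 (Tagln) to -0.90 (Plp2), beside -0.80 for Nfkb2, -0.013 for Rel and 0.20 for Nfkbie. The ranks therefore partly restate the changes given above and are a description.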

How the data were processed

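RNA-seq counts of primary mouse OLs were analyzed in 12 libraries, 6 of siEgr2 and 6 of siNC, grouped by their labels. The authors deposited raw counts per gene symbol, without normalization. The submitters' processing notes name the build mm10, and the aligner, the counting program and the strand setting are not given in the sources used here. A blank entry (1) was left out.

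Counts were fitted in R 4.3.3 with edgeR 4.0.16 (filterByExpr, TMM, robust quasi-likelihood test, no covariate), with Benjamini-Hochberg adjustment over all 16600 genes tested. The thresholds for the adjusted p (0.05) and the log2 fold change (0.5) are those of the study, here in both directions. Intervals are 95% intervals of the fitted change. For ratios, 0.5 was added to each count. The fit was checked on simulated counts. Counts were compared in the 30 pairs of libraries of the same group, and chi-square per gene was at least 7.56, so that no library is a copy of another.

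Coordinates and exonic lengths are from GENCODE M21 on GRCm38, the assembly also called mm10, and promoters from RefSeq. The alternatives were RLE and upper-quartile factors, library size only, DESeq2 1.42.0, limma-voom (limma 3.58.1), other filters, a replicate block, thinning to 8034251 counts (with a second draw added after the data were seen), leaving out structural RNA genes or single libraries, and other thresholds. Genes were named by a rule: the 10 genes, Egr2, up to 8 called genes of each pathway list by size of change, the 2 highest genes of each marker list, and the 5 genes most like Nfkb2. Some genes that this rule names are not reported here, and other genes were named after their values were seen. The genes, lists and ratios were chosen with earlier results of these data known.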

Additional observations from a re-analysis of the deposited data

Results flagged for a closer look

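The level of Nfkb1 in siNC replicate 2 was 50.3 CPM, while the other siNC libraries lay between 43.2 and 45.7 CPM, so that this library stood apart from the rest of its group. The log2 ratio of Nfkb2 to Nfkb1 in the same library was -1.05, against -0.73 to -0.54 in the other siNC libraries. In 38 groups of 6 values, 2 values stood apart, and chance gives about 1.9. Without this library, the Nfkb1 log2 fold change was -0.22 in place of -0.25, and its edgeR adjusted p was 0.0329.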

How the results depend on the processing

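Nfkb2, Nfkbia and Nfkbiz kept their call in 24 of 25 alternatives each, with log2 fold changes of -0.99 to -0.71, -1.07 to -0.87 and -1.12 to -0.89, and lost it with a threshold of 1 on the log2 scale, which called 0 of the 10 genes and 373 genes in all. With library size only, the median of all genes shifted from 0.0046 to -0.18, 1974 genes were called in place of 1281, and 5 of the 10 genes were called lower, with Relb (-0.68) and Tnfaip3 (-0.57) in addition, and 8 passed the adjusted p alone. When each of the 12 libraries was left out in turn, 1114 to 1339 genes were called, 3 to 4 of the 10 genes were lower, 0 higher, and 5 to 6 passed the adjusted p. Relb was called without siNC replicate 2, 5 or 6 and without siEgr2 replicate 4, 5 or 6, with the replicate block, and in 4 other settings. The log2 fold change of Rel ranged from -0.072 to 0.066 with single libraries left out and was -0.20 with library size only. It was positive without siNC replicate 2 (0.037) or 4 (0.066) or siEgr2 replicate 1 (0.00083), 2 (0.015) or 3 (0.00038), and with limma-voom (0.0011). Among the markers, the log2 fold changes of Ptprz1, Kdr and Cdh5, which were not called, changed sign: that of Ptprz1 (-0.031) and Kdr (-0.047) turned negative with library size only, and that of Cdh5, -0.37 to 0.24 with single libraries left out, was negative with library size only (-0.11), limma-voom (-0.35), the replicate block (-0.26), thinned libraries (-0.089) and without siNC replicate 3 (-0.029) or siEgr2 replicate 3 (-0.37) or 5 (-0.23). Thinning to the smallest library total was repeated with a second random draw, chosen after the data were seen. The draws called 1062 and 1058 genes and 4 and 3 of the 10 genes, since Relb was called in the first (-0.51) and not in the second (-0.48), and Rel was positive in the second (0.017). The log2 fold change of Tnfaip3, -0.39 with all counts, was -0.19 in the first draw (edgeR adjusted p = 0.522) and -0.35 in the second (0.164). The causes were not tested.

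The replicate numbers did not pair the libraries: same-numbered libraries had correlations of their deviations between -0.021 and 0.052. With the replicate block, 1124 genes were called, and 4 of the 10 genes were lower, Relb (-0.51) in addition. For the ratios, the sign-flip test over same-numbered libraries as a replicate block left the differences at -0.57 for Nfkb2 to Nfkb1, -0.38 for Relb to Rela, -0.76 for Nfkbia to Rela, 1.09 for Nfkbie to Nfkbia, 0.68 for Bcl3 to Nfkbia and 0.49 for Tnfaip3 to Nfkbia. The adjusted p of the sign-flip test was 0.125 for Relb to Rela and 0.05 for the others, so that none of these 6 ratios was under 0.05. With 6 pairs, the unadjusted p of this test has a floor, which the others reached. Leaving out 1 library each gave log2 differences of -0.65 to -0.47, -0.45 to -0.31, -0.80 to -0.72, 1.05 to 1.16, 0.64 to 0.72 and 0.40 to 0.56 in the same order, and -0.11 to 0.0098 for Nfkbiz to Nfkbia, which was positive without siEgr2 replicate 6 (0.0098). At the lower depth of siEgr2, counts were fewest for Tnfaip3 (52 to 100 per library).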
